A study of Rattus norvegicus with 8 samples.

Results

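The transcriptome of isolated rat hearts perfused for 2 h without drug was described from 4 of the 8 arrays of the series, those of the hearts titled control, replicates 1 to 4. All hearts came from male Wistar rats of about 300 g and were perfused in a Langendorff apparatus that does not recirculate the perfusate. The other 4 hearts received 2 µM doxorubicin over the same 2 h, the character before the molar sign being lost in the label; here they lend only their own between-heart spread. An Affymetrix array was hybridized with biotin-labelled cRNA from the total RNA of each heart. The labels call the hearts biological replicates; the age of the rats, the chambers taken for RNA and the time of day are not given there. With 1 array per heart, the SD of a gene covers differences between hearts and between array runs together. Levels were not compared between the groups, and each gene was ranked by its mean log2 intensity over the 4 control hearts and by its SD.

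In a Langendorff preparation the excised heart is fed through a cannula in the aorta, so that perfusate enters the coronary vessels and blood is washed out. The heart muscle cell of the ventricle is packed with sarcomeres, the contractile units, and with mitochondria that burn mainly fatty acids, whereas its atrial counterpart uses other myosin light chains and secretes atrial natriuretic peptide. Around the muscle cells lie endothelial cells, pericytes, smooth muscle, fibroblasts, macrophages, valve tissue and fat, all of which give RNA to an extract of the whole organ.

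Each of 14217 genes was represented by its brightest probe set. Mean levels ran from 3.27 to 14.46 on the log2 scale, with a median of 5.95. A gene was called bright in the top 10% of genes, from 9.46 upward (1422 genes, 10%), and dim below 4.17, the limit of the dimmest 25% of probe sets (1999 genes, 14.1%). The signal of a probe set also depends on its probes, so the ranks are ranks of signal, and neither bright nor dim stands for a number of transcripts. The median SD over the 4 hearts was 0.13, with quartiles of 0.08 and 0.19, and 1% of genes were above 0.53. The highest and lowest heart differed by at least 1 log2 unit, which is 2-fold, in 218 of 14217 genes (1.53%); this is called a 2-fold spread below.

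Control 1 stood apart from control 2 and 3, and less from control 4. Across genes, Pearson's r of control 1 was 0.988 with control 2, 0.991 with control 3 and 0.9935 with control 4, and 152, 102 and 61 genes differed by 2-fold. Among the other hearts r was 0.9922 (control 2 and 4, 81 genes), 0.9944 (control 3 and 4, 50 genes) and 0.9958 (control 2 and 3, 23 genes). Control 1 was the heart farthest from the mean of the other 3 in 117 of the 218 genes with a 2-fold spread (53.7%) and in 33.3% of all genes, and control 2 in 55 of the 218 (25.2%) and in 29.5% of all genes. Without control 1, 98 genes had a 2-fold spread among the remaining 3 hearts, and without control 2 the number was 137. The 24 poly-A spike-in probe sets averaged 7.22 in control 1 and 7.31 to 7.50 in the other hearts, and the 18 hybridization controls averaged 10.57 in control 3 and 10.21 to 10.27 in the others. The 3′ minus 5′ difference of the GAPDH control was 0.26 in control 1 and 0.09 to 0.20 in the rest, that of hexokinase was 0.99 and 0.84 to 0.95, and that of beta-actin was 0.65 and 0.60 to 0.77. The part of these values in the results below was not tested.

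Genes of the sarcomere, of the mitochondrion and of calcium transport filled the top of the ranking. COX1 and COX2, subunits of cytochrome c oxidase encoded in mitochondrial DNA, ranked first and second with means of 14.46 ± 0.04 and 14.45 ± 0.02 (SD, n = 4), and did not differ beyond that spread. Next came Myl2, the ventricular regulatory light chain of myosin, at 14.06 ± 0.06, and Myh6, the alpha myosin heavy chain that dominates the rodent ventricle, at 14.04 ± 0.11. Slc25a4, which exchanges ADP for ATP across the inner mitochondrial membrane, followed at 14.03 ± 0.01. The troponins Tnnt2 (13.97 ± 0.03) and Tnni3 (13.82 ± 0.03), myoglobin (Mb, 13.76 ± 0.02), the sarcoplasmic calcium pump Atp2a2 (13.74 ± 0.04) and tropomyosin Tpm1 (13.72 ± 0.06) completed the first 10.

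Among places 11 to 30 were the light chain Myl3 (13.70 ± 0.04) and the stretch-responsive titin partner Ankrd1 (13.66 ± 0.05). Phospholamban, the brake on the calcium pump, stood close to them (Pln, 13.64 ± 0.02). Fuel handling was present with the fatty acid carrier Fabp3 (13.59 ± 0.04), the citrate cycle enzyme Idh2 (13.62 ± 0.08), malate dehydrogenase Mdh1 (13.47 ± 0.04) and lactate dehydrogenase Ldhb (13.41 ± 0.06). Both muscle creatine kinases, which buffer ATP, were there too, Ckmt2 of the mitochondrion at 13.56 ± 0.04 and Ckm of the cytosol at 13.36 ± 0.11. The phosphate carrier Slc25a3, troponin C (Tnnc1), cytochrome oxidase subunit Cox6a2 and the ATP synthase genes Atp5f1b, Atp5f1a, Atp5pb, Atp5f1c and Atp5mc3 lay between 13.31 and 13.57. The small heat shock proteins Cryab and Hspb6, which guard sarcomere proteins, and the Z-disc protein Csrp3 read 13.55, 13.34 and 13.32.

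These 30 genes had SDs of 0.01 to 0.15 with a median of 0.04. They made up 8.43 ± 0.13% of the summed linear signal of the 14217 genes, the first 100 made up 19.5 ± 0.21% and the first 1000 made up 60.2 ± 0.67%. Of the 100 brightest probe sets, 75 had 1 gene symbol, 17 had several and 8 had none. Probe sets with several symbols stood for no gene, and cardiac alpha-actin, which shares its probe sets with Acta2, is for this reason not analysed here.

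**Figure D1:**
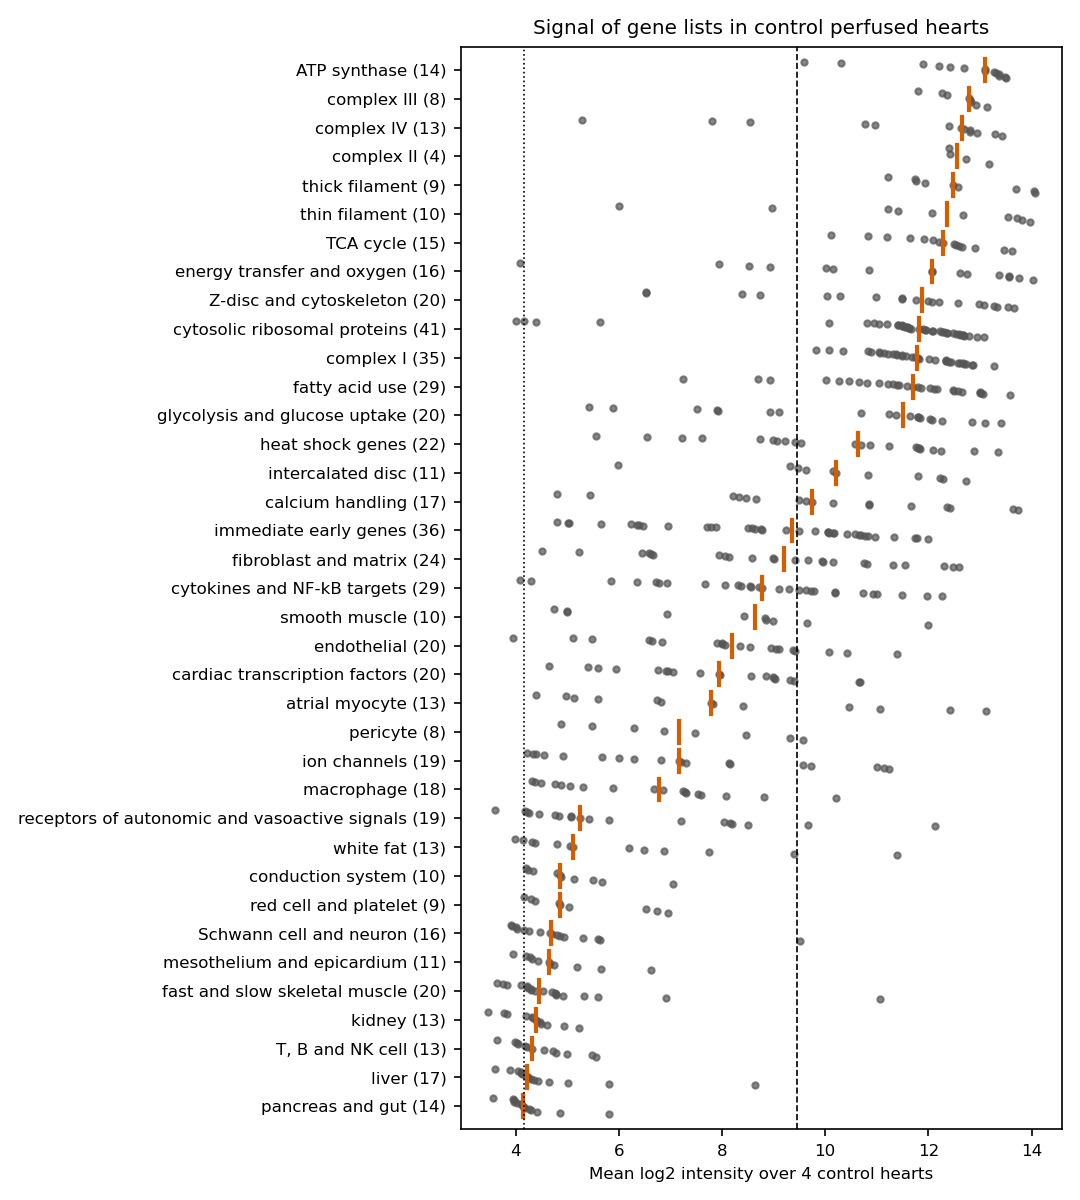
Mean log2 intensity over 4 control hearts (x axis) of each measured gene (grey points) in lists by function or cell type, with the number measured in parentheses. Orange bars are list medians, ordered from 13.09 for ATP synthase to 4.15 for pancreas and gut; the dashed line is the limit of the brightest 10% of genes (9.46) and the dotted line that of the dimmest 25% of probe sets (4.17).

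Most contractile and structural genes were bright, as the plot of list levels shows. All 9 measured thick filament genes, 8 of 10 thin filament genes, 16 of 20 genes of the Z-disc and cytoskeleton and 9 of 11 of the intercalated disc were in the brightest 10% of genes. Titin, the giant spring of the sarcomere, read 11.47, 11.84, 11.84 and 11.84 in control 1 to 4 (Ttn), and myosin binding protein Mybpc3 read 12.47 ± 0.07. Connexin 43, the main gap junction protein of the ventricle, had a level of 12.73 ± 0.06 (Gja1). Desmoplakin, which anchors desmin at the disc, had 12.29 ± 0.13 (Dsp).

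Myh7 and Acta1, genes of the fetal or loaded heart, had the highest SDs of the thick and thin filament lists (0.37 and 0.49). Load genes of the Z-disc list varied less, with SDs of 0.05 for Ankrd1 and 0.34 for Xirp1. Myh7, the beta myosin heavy chain, read 12.28, 11.72, 12.20 and 11.52 in control 1 to 4. Skeletal alpha-actin read 12.25, 11.99, 12.58 and 11.43 (Acta1), the only thin filament gene with a 2-fold spread. For both, control 1 and 3 were the higher hearts and control 4 the lowest.

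Of 17 calcium handling genes 11 were bright and none had a 2-fold spread. The calcium release channel Ryr2 was at 12.41 ± 0.12, the calcium store protein Casq2 at 12.36 ± 0.07 and the sodium-calcium exchanger Slc8a1 at 10.84 ± 0.13. The pore of the L-type calcium channel, the trigger of release, had 8.22 ± 0.03 (Cacna1c). Of 19 ion channel and pump genes 5 were bright, led by the potassium channel partner Kcnip2 (11.23 ± 0.07), the sodium pump regulator Fxyd1 (11.13 ± 0.19) and the pump subunit Atp1b1 (11.00 ± 0.09). The inward rectifier Kcnj2, which sets the resting potential of ventricular cells, was listed close to the dim limit at 4.34 ± 0.30, and the other potassium channels Kcna4 (4.21 ± 0.12) and Kcne1 (4.54 ± 0.12) were also near it.

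Energy metabolism gave the brightest lists of all. Every measured gene of complex I (35), complex II (4), complex III (8), ATP synthase (14) and the citrate cycle (15) was bright, with 10 of 13 for complex IV. Together the 74 listed genes of the respiratory chain and ATP synthase, all nuclear, carried 8.33 ± 0.53% of the summed signal. COX1 and COX2, encoded in mitochondrial DNA, are not members of these lists and not part of that share. Fatty acid use had 26 of 29 bright genes, among them lipoprotein lipase, which frees fatty acids in the capillary (Lpl, 13.05 ± 0.12), the trifunctional enzyme subunit Hadhb (13.02 ± 0.01), the fatty acid transporter Cd36 (12.50 ± 0.12) and Acsl1, which links fatty acids to coenzyme A (12.58 ± 0.12). Pdk4, a kinase that inhibits pyruvate dehydrogenase, read 11.46, 11.49, 11.37 and 10.95, lowest in control 4.

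Glycolysis and glucose uptake had 13 of 20 bright genes. The muscle enzymes were bright, with aldolase Aldoa at 13.09 ± 0.04 and phosphofructokinase Pfkm at 11.80 ± 0.02, and the liver or brain forms Pfkl (5.88 ± 0.23) and Aldoc (5.42 ± 0.22) were not. Slc2a4, the insulin-sensitive glucose carrier GLUT4, read 10.69 ± 0.26, and its basal counterpart Slc2a1 read 7.52 ± 0.10. These values come from different probe sets and give no ratio between the forms. Of the 41 cytosolic ribosomal protein genes measured, 37 were bright, from Rpl7a (13.08 ± 0.03) down to Rps28 (10.08 ± 0.67).

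The transcription factors that specify heart muscle had lower signals than the metabolic genes, with a list median of 7.95, compared with 5.95 over all genes. Of these factors 2 of 20 were bright (10%, as among all genes), Tead1 (10.67 ± 0.04) and Mef2a (10.66 ± 0.23). Nkx2-5 read 9.31 ± 0.18, Gata4 read 7.57 ± 0.16 and Hand2 read 6.95 ± 0.03. Hopx, a small homeodomain regulator, and Tbx5, a T-box factor of the atria and left ventricle, were the members with a 2-fold spread. Hopx read 8.36, 9.71, 9.58 and 8.41 and Tbx5 read 5.13, 6.35, 5.64 and 5.23 in control 1 to 4. Control 2 and control 3 were the higher pair in both genes. Genes of autonomic and vasoactive signalling had a median of 5.24, and 2 of 19 were bright (10.5%, close to the 10% of all genes). These were the G protein Gnas (12.13 ± 0.11) and the adrenergic receptor Adra1b (9.66 ± 0.26), and the beta receptor Adrb1 read 5.08 ± 0.06.

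Of 36 immediate early genes, which respond within minutes to hours of stress, 18 were bright; a heart taken before perfusion was not analysed here, so no change can be given. The others reached down to Egr3 (5.02 ± 0.20) and Ccn1 (4.80 ± 0.32). Fos, a subunit of the transcription factor AP-1, read 11.88, 12.03, 11.82 and 12.26 in control 1 to 4. Atf3, a stress-induced factor of a related family, read 11.80, 11.56, 11.65 and 12.13, and the zinc finger factor Egr1 read 11.74, 11.53, 11.62 and 12.05. Control 4 was the highest heart in each of these 3 genes, with SDs of 0.19 to 0.25, but the list did not follow them. Of the 36 genes, 17 were highest in control 1, against 29.9% of all genes. Control 4 was highest in 10, and the share of all genes highest there was not computed. The mean deviation of the list was 0.088, -0.058, -0.076 and 0.047 in control 1 to 4. Klf10 was the only member with a 2-fold spread, at 5.94, 7.07, 6.65 and 6.21.

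Of 29 genes for cytokines and targets of the transcription factor NF-κB, 12 were bright. The neutrophil-attracting chemokine Cxcl1 (12.26 ± 0.24), the monocyte chemokine Ccl2 (11.98 ± 0.22) and the adhesion molecule Icam1 (11.48 ± 0.13) led them, and NF-κB's own inhibitor Nfkbia read 10.92 ± 0.18. Interleukin 1 beta had 9.78 ± 0.33 (Il1b), and interleukin 6 read 8.37, 8.92, 8.55 and 7.58, lowest in control 4 (Il6). Ptgs2, the inducible cyclooxygenase, had the highest SD of the list and read 5.36, 7.85, 7.75 and 6.11, with control 2 and 3 the higher pair. The list did not share this pair: 14 of 29 genes were lowest in control 2, against 28.4% of all genes, and 3 were highest there. Its mean deviation was 0.055, -0.093, 0.126 and -0.088 in control 1 to 4.

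Heat shock genes gave 13 bright members of 22. Hspb1 read 13.06, 12.72, 12.71 and 13.05 and the inducible Hspa1a read 10.98, 10.22, 10.45 and 11.10, so that control 1 and control 4 were the higher hearts in both of these chaperones. The mitochondrial chaperone Hspd1 varied little, at 12.08 ± 0.02. Natriuretic peptide B, a marker of wall stress, read 12.46, 11.61, 11.88 and 11.86 (Nppb), highest in control 1, and Rcan1, a calcineurin regulator, read 12.31, 11.74, 11.87 and 11.79, again highest there. Among hypoxia genes 8 of 18 were bright, with Vegfa at 11.18 ± 0.19 and Egln3 at 10.89 ± 0.07, and Car9, which is strongly induced in hypoxic tissue, was near the dim limit at 4.34 ± 0.11. Antioxidant genes had 11 of 25 bright members, led by Gpx1 (13.23 ± 0.04), Sod1 (12.04 ± 0.09) and Prdx3 (11.81 ± 0.12). Of the genes for muscle protein breakdown 10 of 13 were bright, and the ubiquitin ligases Trim63 and Fbxo32, markers of muscle wasting, read 8.69 ± 0.09 and 5.13 ± 0.16.

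The tissue label held against its markers. Of 9 ventricular myocyte genes 6 were bright and none had a 2-fold spread. Lists of organs other than the heart lay near the floor: none of 17 liver, 13 kidney or 14 pancreas and gut genes was bright, and their list medians were 4.23, 4.39 and 4.15. Albumin read 4.44 ± 0.10 (Alb), uromodulin of the kidney 4.31 ± 0.24 (Umod) and the exocrine enzyme Prss1 4.16 ± 0.10. An exception was transthyretin, at 8.63 ± 0.03 (Ttr). Of 20 skeletal muscle genes, Myh1 alone was bright at 11.06 ± 0.16; its family shares much sequence with Myh6, so reads of one by probes of the other cannot be told apart here. The fast and slow skeletal forms Myh4 (3.64 ± 0.04), Tnnt3 (4.22 ± 0.09) and Tnnt1 (4.22 ± 0.14) were near the floor.

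Of the cells between the muscle fibres, endothelial genes had 3 bright members of 20, Fabp4 (11.39 ± 0.10), Aqp1 (10.43 ± 0.08) and Kdr (10.08 ± 0.09), and their summed level stayed within 13.28 to 13.34. Fibroblast and matrix genes had 11 of 24, led by Mgp (12.60 ± 0.18), decorin (Dcn, 12.47 ± 0.21) and Gsn (12.31 ± 0.13). Lysozyme was the bright macrophage gene of 18 (Lyz2, 10.20 ± 0.18), and the scavenger receptors Cd163 (5.05 ± 0.35) and Mrc1 (6.68 ± 0.42) were fainter. In whole-organ RNA, fewer cells of a type and less RNA per cell cannot be told apart. Lymphocyte, neutrophil and mast cell lists had no bright member among 13 and 14 genes, and Cd3e (3.99 ± 0.09) and S100a8 (3.64 ± 0.15) were dim. Beta globin, the mark of red cells left in the vessels, read 6.95 ± 0.09 (Hbb), and erythroid Alas2 read 4.30 ± 0.11. Conduction system genes were faint in all hearts, with Hcn4, the pacemaker channel, at 5.67 ± 0.24 and Shox2 at 4.80 ± 0.21. Of 11 genes of the mesothelium and epicardium none was bright, and Wt1 read 5.66 ± 0.20. Pericyte genes (1 bright of 8) included Rgs5 at 9.31 ± 0.10, and the nerve and Schwann cell list (1 of 16) had Pmp22 at 9.51 ± 0.37.

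Spread between hearts was greatest at middle levels. The median SD was 0.08 in the dimmest 10% of genes, at most 0.17 in any 10% of genes between, and 0.10 in the brightest 10%, as the plot of SD against level shows. By Dixon's ratio, the gap of 1 heart from the nearest over the range of the 4, a single heart lay beyond the critical value for 4 samples in 796 genes (5.60%). A 4-fold spread was seen in 27 genes, an 8-fold spread in 11 and a 16-fold spread in 4. The 30 genes with the highest SD had mean levels of 4.44 to 11.06, 2 of them were bright and none was dim. Of the 218 genes with a 2-fold spread, 43 were members of the 47 lists, and 80 were members once 3 lists chosen after seeing these genes were added. Control 2 and control 3 were the 2 highest hearts in 115 of the 218 (52.8%) and in 21.8% of all genes. Of 72 such genes with a second probe set, 39 had the same heart farthest on the same side (54.2%), against 990 of 4525 genes (21.9%), and 20 of the second probe sets had a 2-fold spread themselves.

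**Figure D2:**
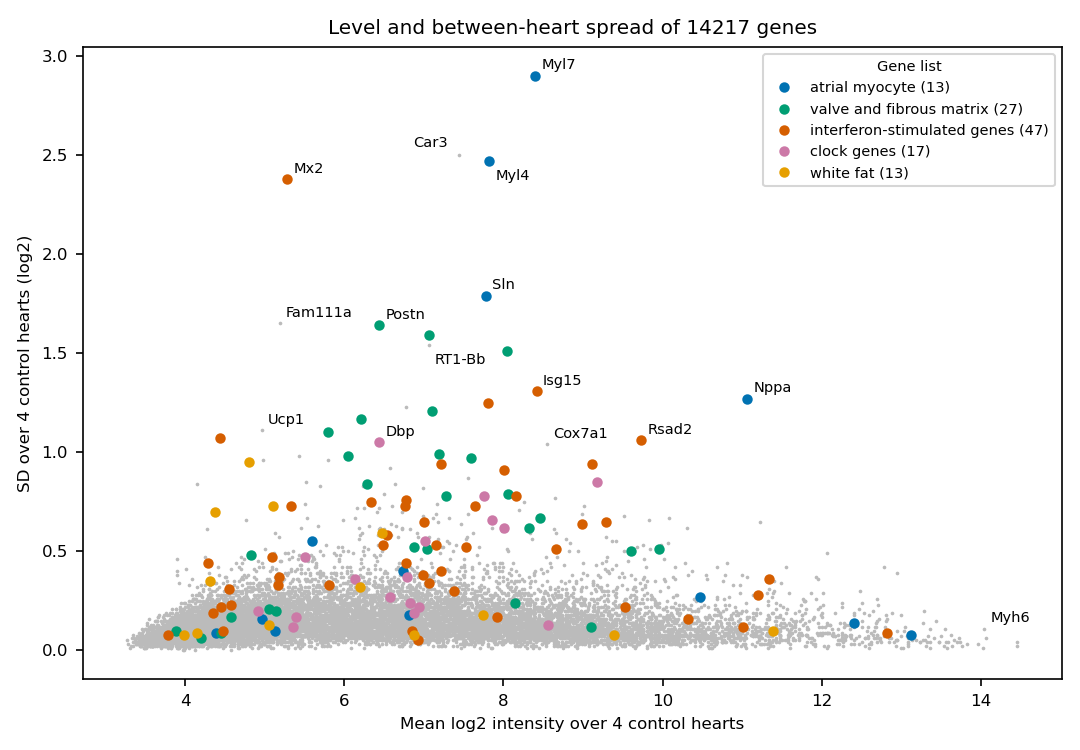
SD over 4 control hearts (y axis, log2) against mean log2 intensity (x axis) for 14217 genes (grey), with the members of 5 lists in colour. The highest SDs, 2.90 for Myl7 and 2.50 for Car3, lie at mean levels of 8.40 and 7.44, and Myh6 at 14.04 has an SD of 0.11.

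Atrial genes held 3 of the 5 highest SDs. Of 13 measured, 5 had a 2-fold spread (38.5%), and all 5 kept it without control 1. Myl7, the atrial regulatory light chain, read 5.03 in control 1, 11.32 in control 2, 10.23 in control 3 and 7.01 in control 4, a 78.5-fold range with an SD of 2.90, the highest of any gene. Myl4, the atrial essential light chain, read 5.32, 10.59, 9.16 and 6.20 in the same order. Sln, the sarcolipin that restrains the calcium pump in atrial muscle, read 6.11, 9.78, 8.80 and 6.44. In all 3 genes the hearts stood in the order control 2, 3, 4 and 1.

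Nppa, the atrial natriuretic peptide, read 10.07, 12.37, 11.94 and 9.88, so that control 2 and 3 were again high and control 1 and 4 lay close together. The summed level of the atrial list was 13.93, 14.72, 14.51 and 14.10 in control 1 to 4. That of the ventricular list was 15.89, 15.89, 15.91 and 15.89, and Myl2, the ventricular counterpart of Myl7, read 14.14, 14.00, 14.06 and 14.04. Atrial list members that are also expressed elsewhere moved less, with Clu at 13.12 ± 0.08 and Pam at 12.41 ± 0.14. Gja5, the connexin of atria and conduction tissue, read 5.13 ± 0.10, and Kcna5, an atrial potassium channel, was near the floor at 4.39 ± 0.09. Mybphl, a relative of myosin binding protein C, read 4.80, 6.89, 5.11 and 4.92, high in control 2 alone.

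**Figure D3:**
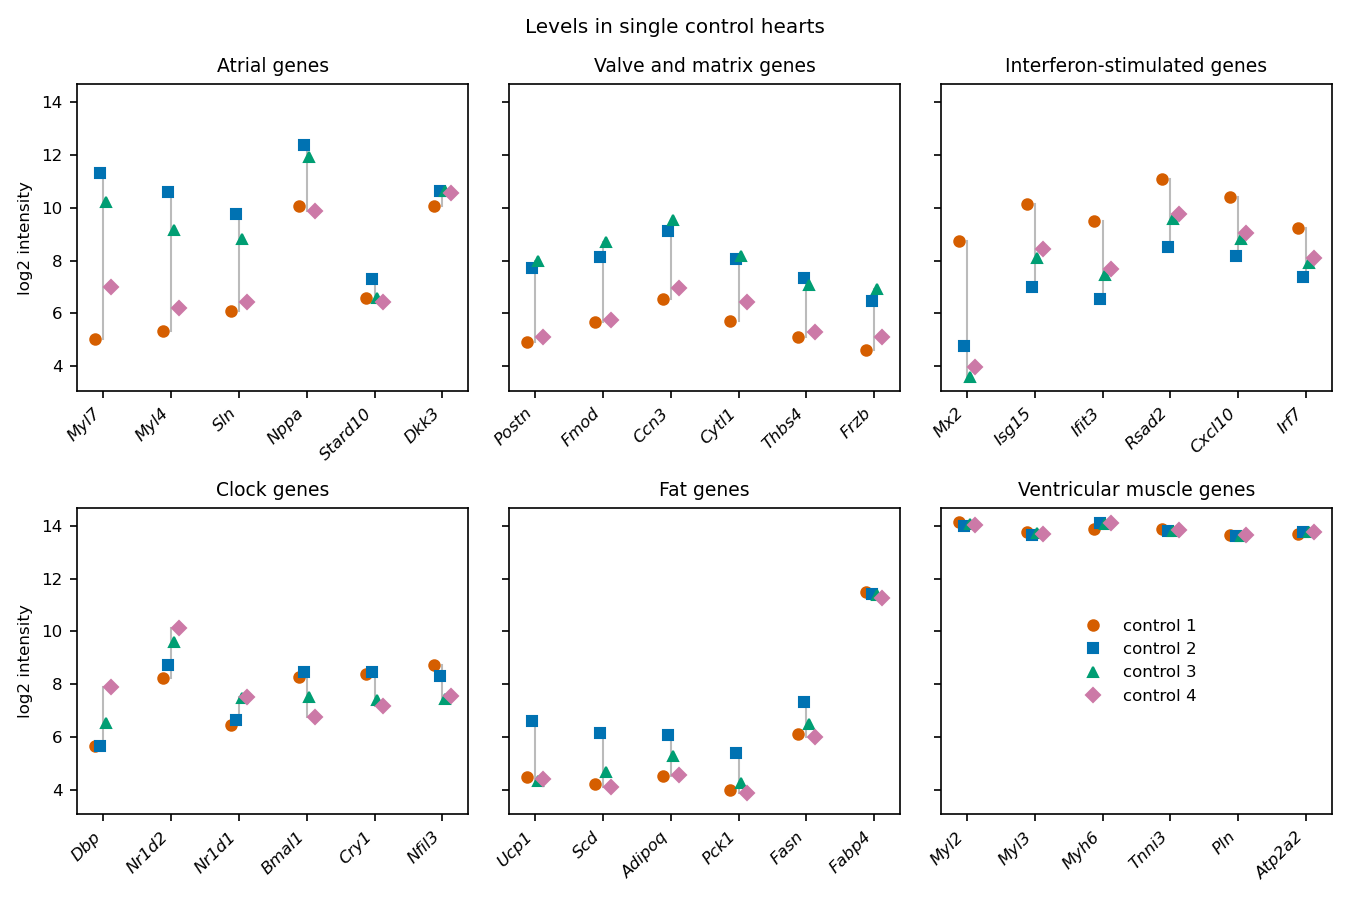
Log2 intensity (y axis) of single genes in each control heart, in panels by gene group; each marker is a heart and grey lines join the lowest and highest. Control 2 and 3 are high for Myl7 (11.32 and 10.23) and Postn (7.72 and 7.99), control 1 is highest for the 6 interferon-stimulated genes, and ventricular muscle genes such as Myl2 (14.00 to 14.14) overlap in all hearts.

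Genes of valve and fibrous matrix gave the same pair of high hearts. This list was drawn up after the genes with a high SD were seen, so its counts describe that choice: 17 of 27 had a 2-fold spread, 15 of 27 were highest in control 3, against 18.1% of all genes, and 17 were lowest in control 1, against 28.1%. Postn, periostin, a matrix protein of valves and activated fibroblasts, read 4.93, 7.72, 7.99 and 5.10. Fmod, fibromodulin, a small proteoglycan that binds collagen, read 5.67, 8.15, 8.71 and 5.74. Ccn3, a secreted regulator of matrix and cell adhesion, read 6.54, 9.13, 9.54 and 6.98. Control 2 and 3 exceeded control 1 and 4 in all 3 genes by at least 2 log2 units. Cytl1 (5.71, 8.06, 8.17 and 6.44), the pentameric matrix protein Thbs4 (5.12, 7.35, 7.08 and 5.30) and the Wnt antagonist Frzb (4.60, 6.49, 6.94 and 5.12) had the same higher pair. Osteomodulin (Omd), Sfrp2 and Abi3bp had SDs of 0.99, 0.98 and 0.97. Cartilage genes were faint in every heart, with Col2a1 at 4.58 ± 0.17 and Acan at 5.06 ± 0.21.

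The fibroblast list had 5 of 24 members with a 2-fold spread (20.8%); it shares Postn, Fn1 and Ogn with the valve list. Without control 1 the number was 2. Of its 24 genes, 19 were highest in control 3 and 16 lowest in control 1, against 18.1% and 28.1% of all genes. Fibronectin read 7.24, 8.63, 8.84 and 7.54 (Fn1), lysyl oxidase, which crosslinks collagen, had an SD of 0.64 with the same higher pair (Lox), and collagen Col3a1 read 11.00, 11.74, 11.98 and 11.48. The summed level of the list was 14.79, 15.16, 15.29 and 14.89. Smooth muscle genes had 3 of 10 with a 2-fold spread, with transgelin at 8.44, 9.50, 9.66 and 8.35 (Tagln) and smooth muscle alpha-actin at 6.33, 7.25, 7.56 and 6.57 (Acta2). The summed level of that list, to which desmin of heart muscle adds most, was 12.81, 12.75, 12.92 and 12.59. Lymphatic genes had 2 of 7, Lyve1 at 6.85, 8.06, 7.44 and 6.35 and Mmrn1 at 4.68, 6.42, 5.72 and 5.23, both highest in control 2. Endothelial and macrophage lists moved by at most 0.06 and 0.16 on average in any heart. The part of tissue composition in the atrial and matrix values was not tested.

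**Figure D4:**
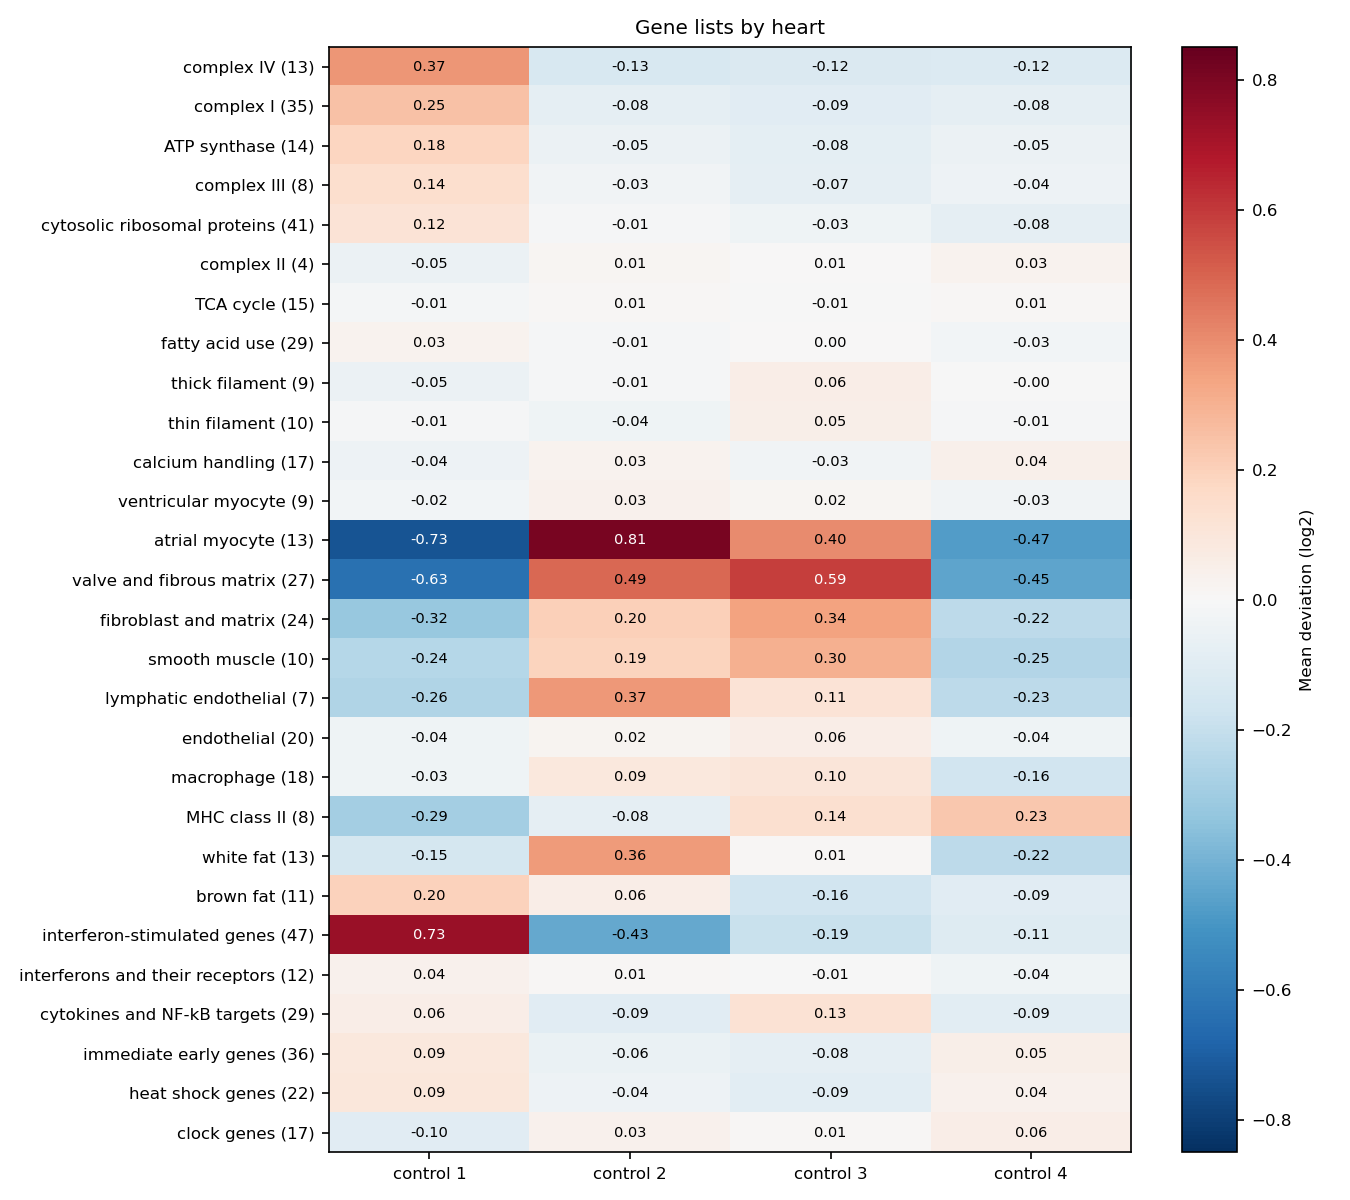
Mean deviation of each list's genes from their own 4-heart means (log2, colour scale and printed value) in each control heart; numbers in parentheses are measured genes. Control 1 is at 0.73 for interferon-stimulated genes and 0.37 for complex IV, and at -0.73 for atrial genes, where control 2 is at 0.81.

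Interferon-stimulated genes were highest in control 1. Such genes are switched on when interferon receptors activate STAT and IRF factors, and many encode antiviral proteins. The list of 47 was added after the spread was seen, so its counts are a description: 46 of 47 were highest in control 1, against 29.9% of all genes, 33 were lowest in control 2, against 28.4%, and 24 had a 2-fold spread. Without control 1, 4 had it. In the motif by which IRF factors and the STAT complex ISGF3 contact DNA, a pair of GAAA blocks stands 2 bases apart. Below are the 250 bases before the start site of 5 list members with a 2-fold spread, from RefSeq on GRCr8, 5′ to 3′ on the gene's strand; they are the 5 with the widest spread among the 12 of 17 such members whose window holds the motif. The other 5 of the 17, Mx1, Oasl, Cmpk2, Psmb9 and Cxcl9, had no match. The stretches are chr1:241527076-241527325 on the plus strand for Ifit3, chr1:205800024-205800273 on the minus strand for Irf7, chr10:42874797-42875046 on the plus strand for Igtp, chr6:48788121-48788370 on the minus strand for Rsad2 and chr14:15988816-15989065 on the plus strand for Cxcl10. Capitals mark each match to GAAANNGAAA or its reverse complement TTTCNNTTTC.
Ifit3: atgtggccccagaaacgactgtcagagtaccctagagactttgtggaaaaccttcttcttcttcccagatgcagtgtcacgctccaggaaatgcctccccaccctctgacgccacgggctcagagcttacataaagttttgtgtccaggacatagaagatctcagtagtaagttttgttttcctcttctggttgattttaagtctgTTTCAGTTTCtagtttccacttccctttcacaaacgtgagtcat
Irf7: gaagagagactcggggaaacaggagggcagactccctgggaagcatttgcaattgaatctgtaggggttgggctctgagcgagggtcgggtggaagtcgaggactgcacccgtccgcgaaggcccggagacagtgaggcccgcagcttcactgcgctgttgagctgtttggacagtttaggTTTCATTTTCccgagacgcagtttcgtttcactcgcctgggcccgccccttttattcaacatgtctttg
Igtp: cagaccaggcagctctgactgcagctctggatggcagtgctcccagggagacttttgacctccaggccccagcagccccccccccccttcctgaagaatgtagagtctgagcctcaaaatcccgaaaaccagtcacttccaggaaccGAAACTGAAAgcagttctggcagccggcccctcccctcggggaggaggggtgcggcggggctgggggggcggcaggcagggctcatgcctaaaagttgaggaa
Rsad2: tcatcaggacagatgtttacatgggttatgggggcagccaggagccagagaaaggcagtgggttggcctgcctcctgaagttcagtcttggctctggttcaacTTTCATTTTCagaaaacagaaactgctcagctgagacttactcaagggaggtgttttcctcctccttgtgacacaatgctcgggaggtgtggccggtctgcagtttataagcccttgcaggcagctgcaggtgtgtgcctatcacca
Cxcl10: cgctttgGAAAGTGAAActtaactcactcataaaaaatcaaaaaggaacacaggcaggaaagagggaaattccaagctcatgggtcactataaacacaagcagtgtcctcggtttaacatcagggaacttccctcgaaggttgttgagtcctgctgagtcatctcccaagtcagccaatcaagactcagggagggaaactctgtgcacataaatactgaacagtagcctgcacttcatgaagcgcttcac

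The match began 44 bases before the start site in Ifit3, 69 in Irf7, 103 in Igtp, 147 in Rsad2 and 243 in Cxcl10. The motif was searched on both strands of the RefSeq windows of 300 bases (250 before and 50 after the start). It was found in 24 of 37 list members with a window (64.9%), in 12 of 17 of those with a 2-fold spread (70.6%), in 1312 of all 33469 windows (3.92%) and in 351 of 11733 windows of genes on the array (2.99%). Isg15 and Mx2 had no window in the table. A match is a string of letters, not a shown binding site. Of the array's genes outside the list whose window held the motif, 109 of 327 were highest in control 1 (33.3%), and of those without it 29.4% were.

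Isg15, a ubiquitin-like protein joined to other proteins in antiviral defence, read 10.16, 7.01, 8.09 and 8.43 in control 1 to 4. Ifit3, which belongs to a family that binds foreign RNA, read 9.51, 6.53, 7.46 and 7.70. Rsad2, the antiviral enzyme viperin, read 11.09, 8.50, 9.57 and 9.77. All 3 genes put the hearts in the order control 1, 4, 3 and 2. Cxcl10, a chemokine for activated T cells, had 10.40, 8.16, 8.83 and 9.06, and Irf7, the factor that amplifies the response, had 9.23, 7.39, 7.90 and 8.10, in that order as well. Igtp, an interferon-induced GTPase, read 7.29, 5.47, 6.24 and 6.34.

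The Mx genes, which encode antiviral GTPases, differed from this graded order. Mx2 read 8.76, 4.78, 3.60 and 3.96, the last 2 below the dim limit, and Mx1 read 6.04, 4.03, 3.95 and 3.75, the last 3 below it, so that control 1 was high and the other 3 lay near the dim limit. A second probe set of Mx2 read 4.67, 3.90, 4.73 and 4.74 and did not set control 1 apart. Other members had a small SD, among them B2m, the light chain of MHC class I (12.82 ± 0.09), Irf1 (11.01 ± 0.12), Eif2ak2 (6.92 ± 0.05), Stat2 (6.85 ± 0.10) and the dim Ddx60 (3.79 ± 0.08).

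Interferons and their receptors did not share the order. Of 12 genes none had a 2-fold spread, and no heart deviated by more than 0.04 on average. Interferon beta and gamma were dim (Ifnb1, 4.08 ± 0.15; Ifng, 3.74 ± 0.08), and the receptor chains Ifnar1 (6.48 ± 0.03), Ifnar2 (6.93 ± 0.07) and Ifngr1 (9.83 ± 0.12) were alike in all hearts. The T, B and NK cell list had a summed level of 8.44 in control 1 and 8.27 to 8.29 in the other hearts. Of its 13 genes, 4 were highest in control 1, against 29.9% of all genes. The macrophage list summed to 11.60 in control 1 and 11.44 to 11.81 in the others, and the neutrophil and mast cell list to 8.60 and 8.52 to 8.67. The part of immune cells in the interferon values was not tested. In the doxorubicin hearts, measured here for their own spread only, 1 of the 47 interferon-stimulated genes had a 2-fold spread and the median SD was 0.18, compared with 0.44 in the control hearts. The list was drawn up after the spread of the control hearts was seen, so a higher value there is built into the choice.

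Nuclear genes of the respiratory chain and ATP synthase were also highest in control 1, by less. Of 74 genes, 58 were highest in control 1, against 29.9% of all genes, and the median difference between control 1 and the mean of the other 3 was 0.27. They carried 9.12% of the summed signal in control 1 and 7.99% to 8.19% in the others. Cox7a1, the muscle form of a cytochrome oxidase subunit, read 10.10, 7.94, 8.08 and 8.06. Ndufa3, a subunit of complex I, read 12.18, 10.76, 11.03 and 10.92, and Ndufb1 of the same complex read 10.81, 9.40, 9.51 and 9.57. Atp5me of ATP synthase read 11.23, 9.88, 10.09 and 10.04. These 4 had a 2-fold spread with control 1 alone above. Of 35 complex I genes 30 were highest in control 1 and 2 were lowest there, and none of 4 complex II genes was highest there. Of the 74 genes, some went the other way, chosen here after their values were seen: Ndufs1, which read 12.56, 12.73, 12.72 and 12.73, Sdha, which read 12.63, 12.74, 12.74 and 12.75, and Uqcrc2, which read 13.07, 13.18, 13.14 and 13.15, each lowest in control 1. Ndufs7, another subunit of complex I, read 12.35, 11.86, 11.96 and 11.88, with control 1 highest. Ribosomal protein genes ran in the same direction, with 23 of 41 highest in control 1; Rps28 read 11.08, 9.68, 9.73 and 9.83 and Rps29 read 13.40, 12.52, 12.64 and 12.55.

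The height of control 1 went with the length of the gene. Lengths of the transcribed locus, introns included, were taken from RefSeq on GRCr8 for 14198 of 14217 genes. The 4 groups were cut within each set of genes, so groups of different sets do not match in length. Median lengths from the shortest to the longest group were 4.6 to 106.7 kb in all genes and 3.7 to 74.4 kb in bright genes. In the respiratory genes they were 2.3 to 20.8 kb. In 4 groups of all genes from shortest to longest, the median difference between control 1 and the other 3 hearts was 0.07, 0.02, -0.02 and -0.05. In bright genes it was 0.16, 0.03, -0.03 and -0.09, and in the respiratory genes 0.37, 0.28, 0.27 and 0.08. The part of this relation in the respiratory values was not tested.

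Clock genes differed between hearts in another order. The circadian clock is a loop in which BMAL1 and CLOCK switch on the genes of their own repressors (PER, CRY and the REV-ERB receptors) and of outputs such as DBP. Of 17 genes, 7 had a 2-fold spread (41.2%), 5 without control 1 and 4 without control 4. Bmal1 read 8.29, 8.46, 7.53 and 6.75 in control 1 to 4. The REV-ERB receptor Nr1d2, a repressor of Bmal1, read 8.25, 8.72, 9.59 and 10.14, and its second probe set read 7.31, 7.70, 8.85 and 8.96. Dbp read 5.66, 5.68, 6.53 and 7.88. Thus control 1 and 2 were high for Bmal1 and low for Nr1d2 and Dbp, and control 4 was the reverse.

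The other REV-ERB gene, Nr1d1, read 6.45, 6.66, 7.48 and 7.51, in the order of Nr1d2. Cry1 read 8.37, 8.46, 7.41 and 7.16, Nfil3, a repressor that competes with DBP, read 8.74, 8.30, 7.45 and 7.56, and Npas2, a stand-in for CLOCK, read 5.41, 6.05, 5.62 and 4.92. Clock (8.56 ± 0.13) and Per1 (5.36 ± 0.12) stayed close to their means, and Per2 read 6.88 ± 0.19. The E-box CACGTG, which BMAL1 and CLOCK bind, was found in 3 of 15 clock promoter windows (20%), in 6.42% of all windows, in 8.92% of those of genes on the array and in none of the 6 windows of clock genes with a 2-fold spread, which says only that these letters are not in this window. In the doxorubicin hearts 8 of 17 clock genes had a 2-fold spread. The time at which each heart was taken is not given in the sources used here.

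Of 13 white fat genes 4 had a 2-fold spread (30.8%), against 1.53% of all genes, and none had it without control 2. Of the 13, 4 were highest in control 1 (30.8%, close to the 29.9% of all genes). Control 2 was highest in 6 of the 13, and the share of all genes highest there was not computed. The median SD of the list was 0.175 in the control hearts. Brown fat genes had 2 of 11 with a 2-fold spread, Ucp1 and Cox7a1, and 7 of 11 were highest in control 1, against 29.9% of all genes. That list is not particular to fat: Cox7a1 and Cox8b are also in the complex IV list, Fabp3 in that of fatty acid use and Ppargc1a in that of cardiac transcription factors. Scd, a desaturase of fatty acid synthesis, read 4.24, 6.16, 4.68 and 4.10. Adipoq, the fat cell hormone adiponectin, read 4.53, 6.08, 5.27 and 4.56. Pck1, which makes the glycerol backbone of stored fat, read 3.98, 5.40, 4.27 and 3.88, and Fasn, fatty acid synthase, read 6.12, 7.31, 6.50 and 6.01. In all 4 genes control 2 was highest and control 3 second. Ucp1, the uncoupling protein of brown fat, read 4.50, 6.62, 4.32 and 4.41, high in control 2 alone. Leptin (Lep, 4.15 ± 0.09) and perilipin (Plin1, 3.99 ± 0.08) were dim, and the summed level of the white fat list ran from 11.85 to 12.06, most of it from Fabp4, which endothelial cells also express. In the doxorubicin hearts 8 of the 13 had a 2-fold spread, and Scd had an SD of 2.95.

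Car3, carbonic anhydrase 3 of fat and slow muscle, ranked second by SD at 4.85, 9.82, 9.34 and 5.75, and its second probe set read 4.69, 6.49, 6.48 and 5.06. It followed the atrial and matrix genes in having control 2 and 3 high; its SD was 3.15 in the doxorubicin hearts. Prkar2b, a regulatory subunit of protein kinase A, read 4.19, 6.19, 5.31 and 4.23, and Reg3g, a secreted lectin, read 4.97, 6.80, 6.43 and 4.99, in the same order. Fam111a, a protease that restricts viruses, read 4.30, 7.66, 4.46 and 4.35, high in control 2 alone, and had an SD of 0.05 in the doxorubicin hearts.

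Among the 17 bright genes with a 2-fold spread, some belong to no list and were picked for their values. Tnfaip6, a hyaluronan-binding protein induced in inflammation, read 10.42, 9.54, 9.88 and 9.17. Klhl40, which stabilizes thin filament proteins, read 10.60, 9.49, 9.91 and 10.06. Both were highest in control 1. Gramd2b read 8.94, 10.19, 8.94 and 10.02 and fell into none of the patterns above. Stxbp6, a SNARE-binding protein, read 9.54, 9.69, 10.39 and 10.67, in the same order of hearts as the clock genes Nr1d2 and Dbp.

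MHC class II genes, which present antigen to T cells, were uneven. RT1-Bb, a beta chain, read 4.83, 7.32, 7.82 and 8.26, and a second probe set for RT1-Bb read 7.12, 5.87, 5.74 and 5.07, so that the probe sets ordered the hearts in opposite ways. RT1-DMb, which helps load peptides, read 7.64, 8.32, 8.32 and 9.08. Without control 1 neither had a 2-fold spread. The invariant chain Cd74 (11.64 ± 0.12), RT1-Da (10.29 ± 0.12) and the regulator Ciita (4.71 ± 0.12) varied little, so that the list did not move as a whole.

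At the other end, the 10 bright genes with the lowest SD had SDs of 0.01, compared with a median of 0.10 over bright genes. They were Idh3g of the citrate cycle (12.60, 12.59, 12.59 and 12.59), the carriers Slc25a3 and Slc25a4, the phosphatase subunit Ppp1ca, Aifm1 of the mitochondrial membrane, Acadm and Hadhb of fatty acid oxidation, the purine salvage enzyme Hprt1, the ribosomal protein Rpl6 and the reductase Ptgr2. With 4 arrays, an SD this small is itself uncertain.

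The spread of the control hearts was set beside that of the doxorubicin hearts, whose drug exposure differed. There, 113 of 14217 genes had a 2-fold spread (0.795%), and 62 genes had it in both groups, which is 28.4% of the control list and 54.9% of the doxorubicin list. The median SD over genes was 0.10 in the doxorubicin hearts. In control and doxorubicin hearts, a 2-fold spread was seen in 5 and 4 of 13 atrial genes, 17 and 11 of 27 valve genes, 7 and 8 of 17 clock genes, 4 and 8 of 13 white fat genes and 24 and 1 of 47 interferon-stimulated genes. The valve and interferon lists were drawn up after high SDs in the control hearts were seen. A higher count in those hearts is therefore built into the choice, and the interferon count fell when control 1 was left out. Single genes with a high SD in both were Myl7 (2.90 and 2.22), Postn (1.64 and 1.21), Dbp (1.05 and 1.23) and Ucp1 (1.11 and 2.44). Interferon-stimulated genes with a lower SD in the doxorubicin hearts included those with 1.31 and 0.18 for Isg15, 1.06 and 0.14 for Rsad2 and 2.38 and 1.16 for Mx2.

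**Figure D5:**
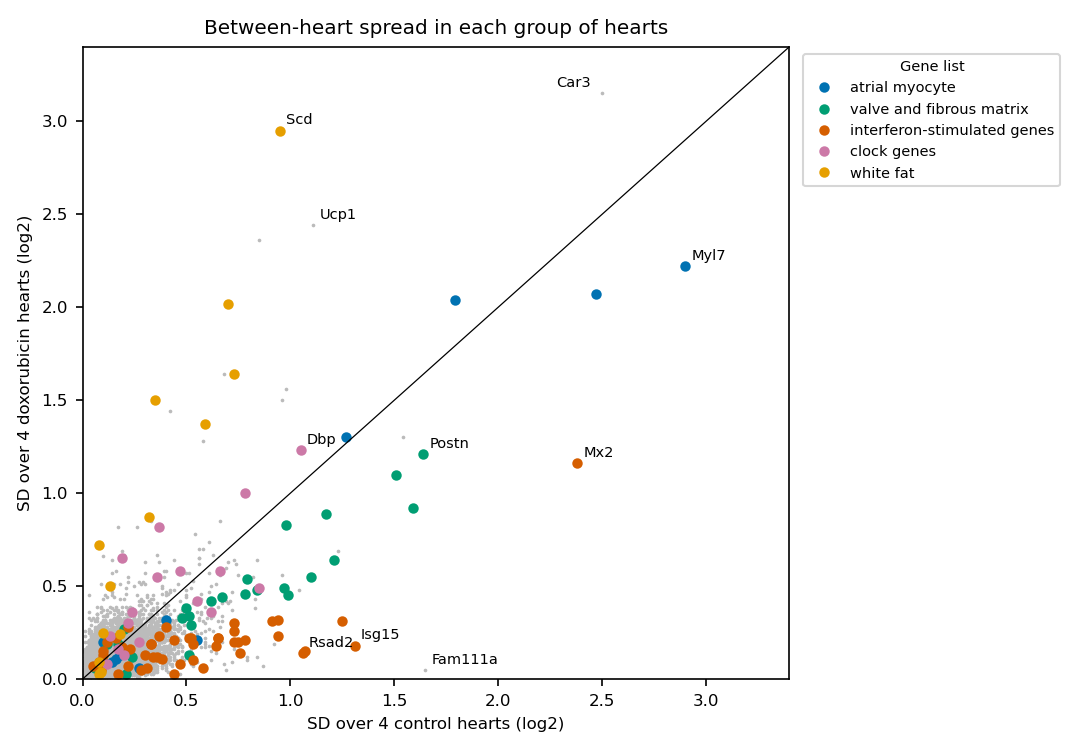
SD over 4 doxorubicin hearts (y axis, log2) against SD over 4 control hearts (x axis, log2) for 14217 genes (grey), with 5 lists in colour and the line of equal SD. Myl7 has SDs of 2.90 and 2.22 in control and doxorubicin hearts, Scd lies above the line at 0.95 and 2.95, and Isg15 below it at 1.31 and 0.18.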

How the data were processed

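RNA from each of 4 control and 4 doxorubicin hearts was read on 1 array per heart. The deposited table holds probe set intensity values made by the authors with RMA (which corrects background, normalizes the arrays jointly and summarizes probes), per the submitters' processing notes. Its software, version and set definitions were not given in the sources used here. The values were linear, with control array medians of 30.0 to 31.0, so log2 was taken without an offset. RMA equalizes the distributions of arrays and thereby hides a shift common to most genes. There are no detection calls, and arrays have no depth: the number of arrays limits the precision.

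Of 31099 probe sets, 57 AFFX controls were left out. The platform annotation gave 1 symbol to 20826 probe sets, more than 1 to 436 and no symbol to 9780; the gene ID of 20758 was in the RefSeq table (GRCr8), which gave current names, locus lengths and promoter windows. The probe set with the highest mean over the control arrays stood for each of 14217 genes. None of the 6 pairs of control arrays held identical values. In 47 lists 884 genes were named and 772 measured, the others being not analysed here; 3 lists (interferon-stimulated genes, interferons and their receptors, valve and fibrous matrix; 86 of 100 measured) were added after genes with a high SD were seen. Members and lists were chosen with earlier results of these data known. Named are the 30 genes with the highest mean, the 30 with the highest SD, the 10 bright genes with the lowest SD, and from each list up to 4 members by mean and 3 by SD, defining members at the floor and members a result turns on; others were chosen after their values were seen.

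No test was made, and no mean was compared with the drug group. Alternatives were a repeated quantile normalization, median centring, an offset of 16, the mean of all probe sets, the probe set chosen over 8 arrays, no dim genes, an SD set against genes of similar mean, and each heart left out. The calculation of the ranking by SD was checked on simulated data of 14217 genes, 200 of them with 1 heart moved by 4-fold. All 200 took the top places, and 0 other genes had a 2-fold spread. How the ranking does with smaller shifts, or with gene SDs as wide as those of the real hearts, was not tested. Python 3.11.15, pandas 2.3.3, numpy 2.4.6 and matplotlib 3.10.9 were used.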

Additional observations from a re-analysis of the deposited data

Results flagged for a closer look

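Dixon's ratio, the gap between the highest or lowest heart and its nearest neighbour over the range of the 4 control hearts, was above the critical value for 4 samples for 22 of the 217 genes named and for 4 of 50 lists. Chance alone passes this limit in about 1 of 20 groups, and 796 of all genes did. No explanation was tested for any of them.

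Control 1 stood apart in the mean deviation of all 4 lists: complex IV (0.967), complex I (0.953), skeletal muscle (0.923) and ATP synthase (0.876). Among genes of respiration and the ribosome it was high for Cox7a1 (0.933), Rps28 (0.889), Ndufb1 (0.877), Rps29 (0.87) and Atp5me (0.848), and low for Sdha (0.962) and Ndufs1 (0.933). It was high for the interferon-stimulated genes Stat2 (0.994) and Mx1 (0.878). Ttn (0.985), Nkx2-5 (0.878), Myh6 (0.861) and Ckmt2 (0.846) had control 1 apart as well.

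Control 2 stood apart for Fam111a (0.952), B2m (0.921), Ucp1 (0.919) and Mybphl (0.85). Control 3 did so for Atp5f1c (0.967), Slc25a4 (0.881), Atp1b1 (0.866) and Slc25a3 (0.848), genes whose SD was at most 0.09. Control 4 did so for Wt1 (0.941).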

How the results depend on the processing

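Of 5309 values recomputed under the alternatives, 4919 stayed within the limits set for them and 390 moved by more. For the mean of a gene the limit was its SD over the 4 control hearts. For counts and for the SD of a gene it was a change of 1.5 times. The values belong to 543 results, and 283 of these results moved under at least 1 alternative. Another normalization, offset, probe set rule or filter kept the 100 genes with the highest SD to an overlap of 82 to 99 and the 2-fold count of 218 at 154 to 230. Leaving out a heart mattered more. The overlap of the 100 highest SDs was 65 to 87, lowest without control 1. The 2-fold count was 98 to 199, at 98 without control 1 and 137 without control 2. Among the top 100 by SD the farthest heart was control 1 in 35 to 78 genes, control 2 in 15 to 52, control 3 in 6 to 43 and control 4 in 9 to 57, compared with 54, 26, 10 and 10 over all hearts. List members with a 2-fold spread, summed over the 47 lists, numbered 47 with all hearts and 29 to 42 with 1 left out, at 29 without control 1. The cause was not tested. The overlap of the 100 brightest genes was 81 to 100 under these settings, lowest for the mean of all probe sets. No paired analysis was possible because levels were not compared between groups. With 4 hearts an SD is imprecise, and intensities near 4.17 have no detection call behind them.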
